A study of Mus musculus with 10 samples.

Results

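The libraries described here are the 7 of 10 mouse gut RNA-seq libraries whose Gata4 level lay below 20 CPM (estimated counts scaled to a common library total). They are VSG replicates 1, 3, 4 and 5 and SPF replicates 1, 3 and 5. Male C57Bl6 mice were made obese on a high-fat diet with 60% of its energy as fat, given for 6 weeks before surgery. The labels give 8 weeks beside the surgery, and it is unclear from them whether that is the age of the mice or a time on the study. VSG mice had a vertical sleeve gastrectomy, the surgical removal of much of the stomach along its length, and ate freely afterwards. SPF mice had sham surgery and were pair-fed, so that their food matched the intake of the VSG mice. All mice received a liquid Osmolite diet for 4 days around surgery. About 8 weeks later they were fasted overnight, gavaged with 0.5 mL of Osmolite and killed after 1 hour, and the terminal ileum was taken. Each label names 1 mouse, but nothing states separate cages or litters, so the p-values below measure only the spread between these samples, part of which may be technical. Both groups carried the same diet, fast and gavage, and they differ in surgery and in the manner of feeding together.

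The ileum is the last stretch of the small intestine. Its absorptive enterocytes take up bile acids through the transporter Slc10a2 and carry them on the binding protein Fabp6, whereas the transcription factor Gata4 is active in the upper part of the small intestine and silent in the ileum. Paneth cells at the base of the crypts secrete antimicrobial peptides, and enterocytes mature as they migrate from the crypt to the villus tip. Whole-tissue RNA mixes all these cells, so fewer cells of a type and less RNA per cell cannot be told apart.

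The libraries were chosen by their Gata4 values, which are a description and support nothing. Gata4 stood at 1.71 to 6.05 CPM in the 7 kept libraries, and the lowest of the other 3 was SPF 2 at 102.8 CPM, followed by VSG 2 at 122 and SPF 4 at 195.5. Limits of 10 and 50 CPM keep the same 7 libraries. Fabp6 ran from 2836 to 5424 CPM by library total in the kept libraries and from 39.3 to 66.1 CPM in the other 3. Slc10a2 ran from 174.4 to 517.3 CPM and from 4.15 to 14.5 CPM, so both ileal markers separated the libraries as Gata4 did. Slc30a10 and Slc28a2, the other genes given as marks of this group, did not. Slc30a10 spanned 21.4 to 213.5 CPM in the kept libraries and 21.9 to 126.4 CPM in the others, and Slc28a2 spanned 50.1 to 256.9 and 149.5 to 218.8 CPM.

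**Figure D1:**
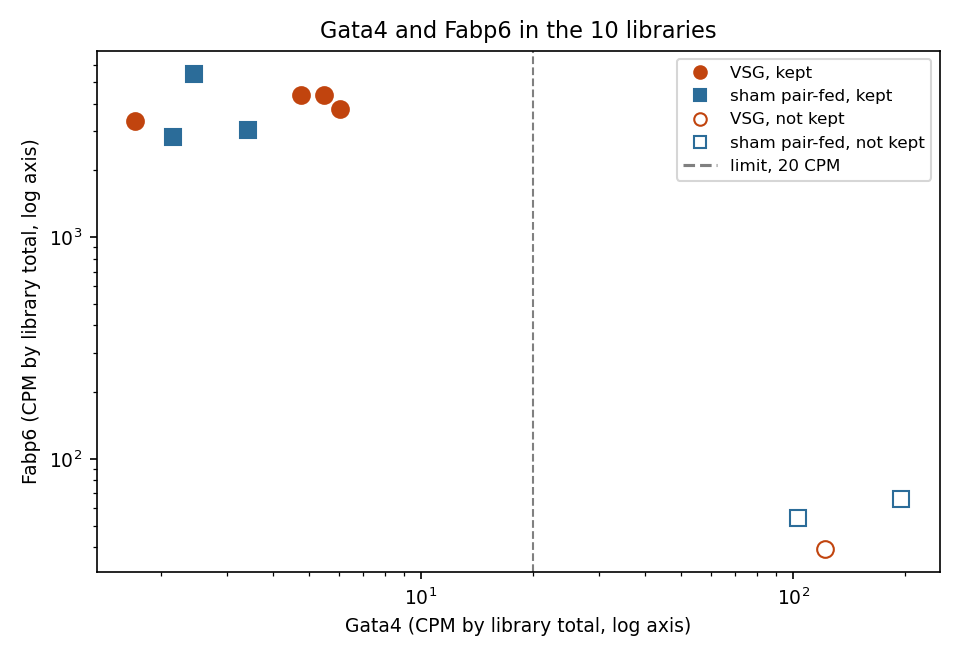
Gata4 against Fabp6, both as CPM by library total on log axes, for all 10 libraries, with VSG as circles and SPF as squares and the libraries that were not kept drawn open. The 7 kept libraries lie left of the dashed limit of 20 CPM with Fabp6 between 2836 and 5424 CPM, and the other 3 lie right of it with Fabp6 between 39.3 and 66.1 CPM.

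The kept libraries held 15364651 (VSG 3) to 34058181 (SPF 5) estimated counts. Their pairwise correlations of log2 CPM over 15911 genes ran from 0.94 to 0.982, and the lowest was between SPF 3 and SPF 5, inside the sham group. The first principal component of the 1000 most variable genes held 31% of the variance, with SPF 3 at 44.65 and SPF 5 at -27.07 at its ends and all 4 VSG libraries in between. Levels from here on are CPM scaled by TMM factors, which correct for composition, unless they are given by library total. SPF 5 had the highest summed level of a smooth muscle list, 4210, against 447 in SPF 3 and 989 to 1789 in VSG. SPF 3 had the highest summed level of ribosomal protein genes, 61960, against 29130 to 39720 in the other 6 libraries.

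The comparison asks how the terminal ileum differs 8 weeks after VSG from that of pair-fed sham mice. No gene passed an adjusted p of 0.05 in edgeR's quasi-likelihood test with Benjamini-Hochberg adjustment over 15911 genes (0%). At an unadjusted p under 0.05 that test listed 1107 genes (6.96%), of which 588 (3.7%) were higher and 519 (3.26%) lower in VSG. DESeq2, run as an alternative, called 83 of 15086 genes (0.55%), 46 higher (0.305%) and 37 lower (0.245%). All 83 had an unadjusted edgeR p under 0.05, and in 81 of them the groups did not overlap. Limma-voom called 2 genes (0.0126%), Slc30a10 and Slc28a2, and with sample weights it called 5 (0.0314%), which added Nt5e, Agt and Gm17446. In 697 genes (4.38%) every VSG library lay above every SPF library, and in 600 genes (3.77%) every VSG library lay below, 8.15% of all genes together. Of the 15911 genes, 6869 (43.2%) had a log2 fold change above 0 and 9042 below 0, and the lists below are to be read beside these counts. Below, "higher" and "lower" describe values, and each gene's adjusted edgeR p missed 0.05. Gm17446, which the gene-naming rule did not cover, stood at 27.8, 33.8, 18.8 and 16.4 in VSG and at 0, 4.74 and 0 in SPF.

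**Figure D2:**
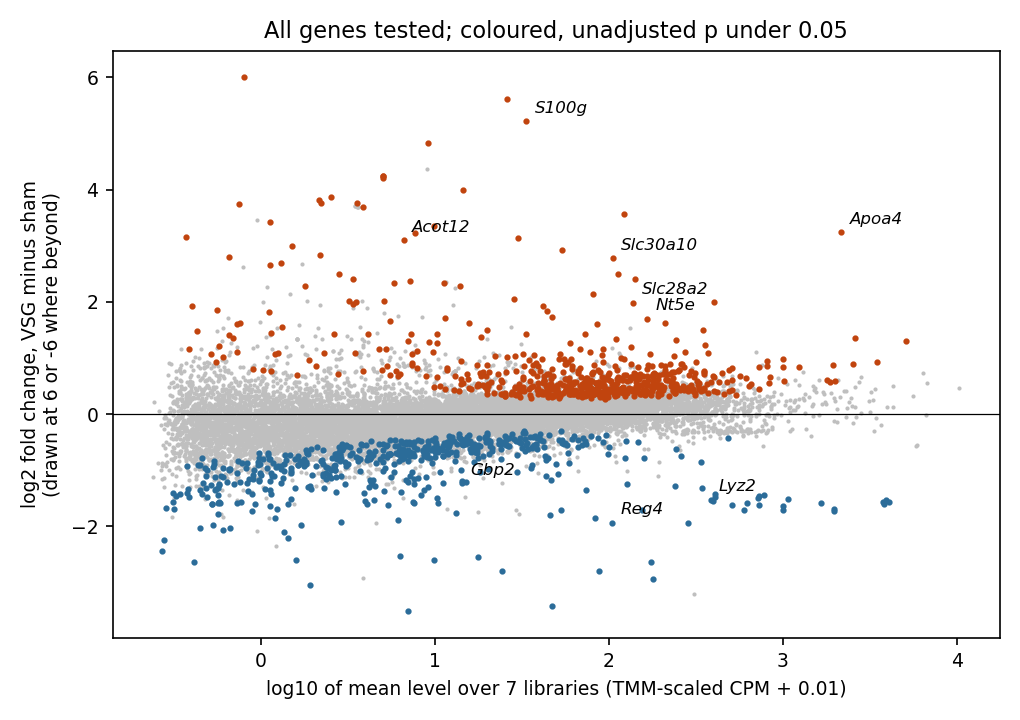
Log2 fold change (VSG minus SPF) of the 15911 genes tested against the log10 of their mean level over the 7 kept libraries; each point is a gene and the coloured points have an unadjusted edgeR p under 0.05 (588 higher in orange, 519 lower in blue). Slc30a10, Slc28a2 and Nt5e are among the higher genes, and Gbp2, Reg4 and Lyz2 are among the lower genes.

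Slc30a10, which exports manganese from cells, had the lowest p of all genes. It stood at 186, 145, 108 and 225 in VSG 1, 3, 4 and 5 and at 27.1, 26.8 and 18.9 in SPF 1, 3 and 5. Every VSG library was above every sham library, by a mean of 166 ± 50.5 (SD, n = 4) against 24.3 ± 4.62 (SD, n = 3). The log2 fold change was 2.78 with a standard error of 0.28 and an adjusted edgeR p of 0.0855, and it ranged from 2.58 to 2.93 when each library was left out in turn. DESeq2 gave an adjusted p of 3.03e-18. A pair of long noncoding RNA genes next to Slc30a10 in the GRCm38 annotation went the same way. Gm2061 stood at 24.8 to 57.3 in VSG and 8.95 to 12.1 in SPF, with a log2 fold change of 2.04, and 9630028B13Rik at 4.08 to 6.34 and 1.03 to 1.8, with 2.00. Gm2061, matched there by its symbol, lies on the opposite strand and overlaps Slc30a10. Its gene identifier there differs from that of the counted gene, so the 2 gene models may not be the same. The sources used here do not state counting by strand, so reads of the overlapping pair cannot be told apart.

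Genes of purine nucleoside handling made up several of the other highest-ranked genes. Slc28a2, a sodium-coupled nucleoside transporter of the enterocyte's luminal membrane, stood at 158, 208, 179 and 271 in VSG and at 45.1, 57.4 and 52 in SPF. Nt5e, the ectoenzyme CD73 that makes adenosine from AMP, stood at 225, 264, 183 and 270 against 58, 76.2 and 83.5. Both sets of VSG values lay wholly above the sham values, with log2 fold changes of 1.98 (SE 0.22, adjusted edgeR p 0.0855) and 1.70 (SE 0.21, adjusted edgeR p 0.118). Gm14085, which RefSeq names Slc28a2b, neighbours Slc28a2 and resembles it, so its log2 fold change of 1.92 may share reads with Slc28a2. Gda, guanine deaminase, stood at 346 to 548 in VSG and 181 to 238 in SPF. Ada, adenosine deaminase, stood at 374, 963, 553 and 476 against 146, 252 and 45.2. Ada was more variable than Gda within the sham group, and their log2 fold changes were 2.00 (SE 0.56) and 1.23 (SE 0.21).

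These 4 genes were the only members of a list of 16 purine genes, chosen after values were seen, with an unadjusted p under 0.05 and with groups that did not overlap. Over all genes, 3.7% were higher at that p, and in 4.38% every VSG library lay above every SPF library. The list's median log2 fold change was 0.18, beside -0.05 over all genes tested. The summed level of the list was 2017 to 2832 in VSG and 1244 to 1607 in SPF. That sum includes Slc28a2, Nt5e, Gda and Ada, so it is not separate evidence for the list. In the other 12 members, among them the intracellular salvage enzymes, the groups overlapped.

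**Figure D3:**
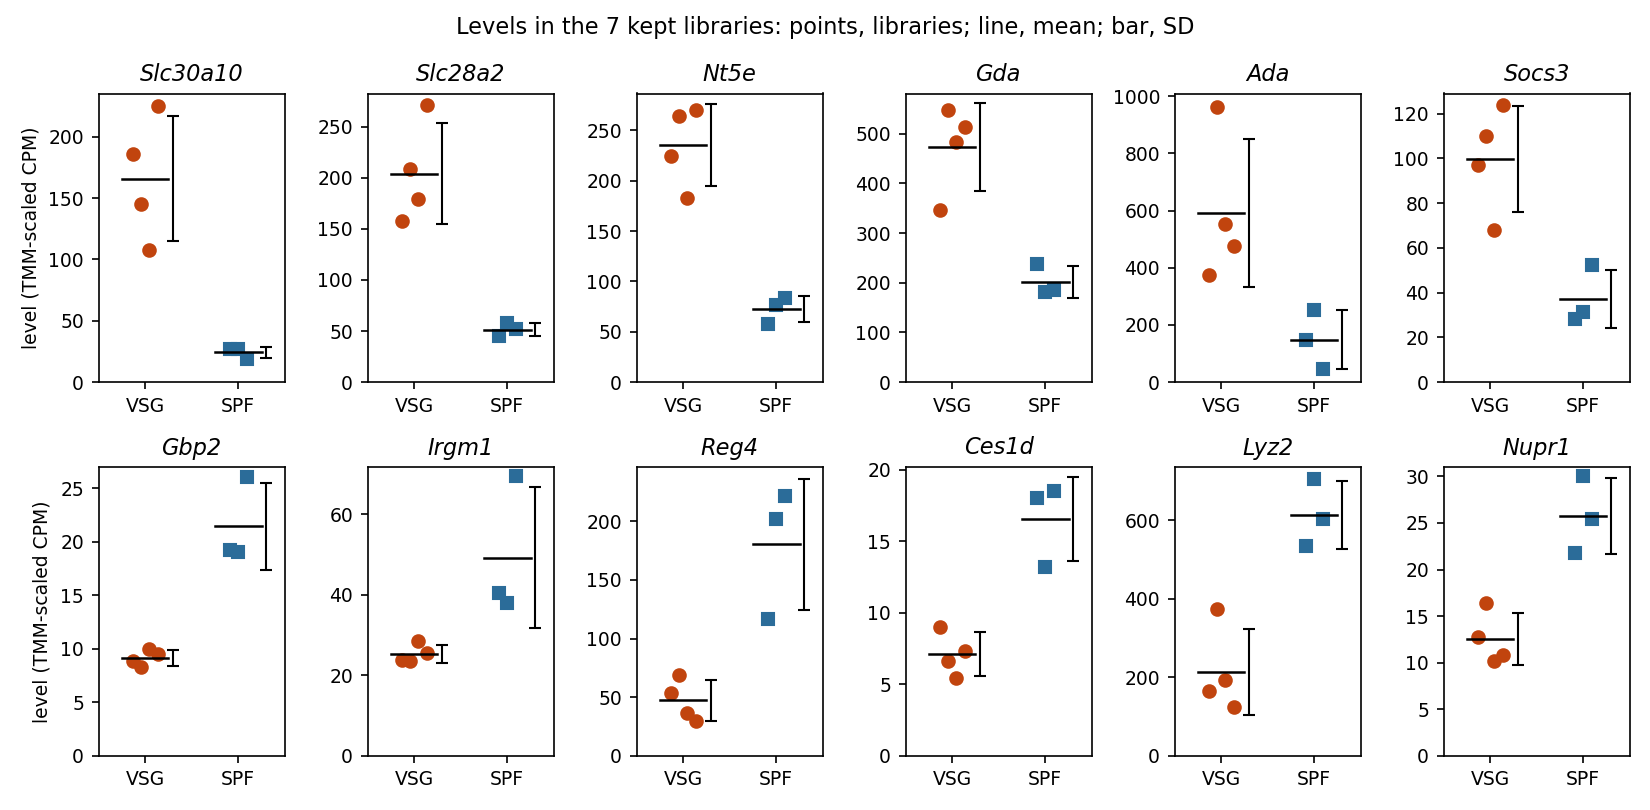
TMM-scaled CPM of 12 genes in the 7 kept libraries, VSG as circles and SPF as squares, with the group mean as a line and the SD as a bar. In all 12 panels the VSG and SPF points do not overlap, with the first 6 genes (Slc30a10 to Socs3) higher in VSG and the last 6 (Gbp2 to Nupr1) lower.

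Other genes near the top had roles outside these pathways. Spsb1, an adaptor of a ubiquitin ligase that acts on inducible nitric oxide synthase, stood at 36.5 to 46.2 in VSG and 21.2 to 24 in SPF, a log2 fold change of 0.86 (SE 0.14, adjusted edgeR p 0.315). Arnt2, a transcription factor of the bHLH-PAS family, stood at 12.2 to 15.8 against 3.79 to 7. Acot12, an acyl-CoA thioesterase, stood at 3.48, 13, 9.58 and 16.6 in VSG and at 2.09, 0.898 and 0.71 in SPF, and was above sham in every VSG library. Mfi2, which encodes melanotransferrin, was a low gene at 1.35 to 3.08 against 0.0519 to 0.353. Plat, tissue plasminogen activator, stood at 33.5 to 69.9 against 22.6 to 33.6, and VSG 4 overlapped the highest sham library by a narrow margin.

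Genes of nutrient absorption stood higher in VSG across several lists. In a list of 24 lipid absorption genes, 22 had a log2 fold change above 0, beside 43.2% of all genes. In 9 the level was higher at an unadjusted p under 0.05, beside 3.7% of all genes. The list's median log2 fold change was 0.60. Npc1l1, the cholesterol uptake protein, stood at 1059, 1124, 1281 and 1508 in VSG and 789, 638 and 657 in SPF, with no overlap and a log2 fold change of 0.84 (SE 0.20). Apoa4, an apolipoprotein of chylomicrons, stood at 619, 9274, 1727 and 2432 against 271, 636 and 207. VSG 1 lay inside the sham range and VSG 3 far above the rest, and the log2 fold change of 3.24 was 2.10 without VSG 3. Mttp, which loads lipid onto chylomicrons, stood at 620 to 1424 against 495 to 565, and Dgat2, an enzyme of triglyceride synthesis, at 244 to 384 against 130 to 233.

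Fatty acid oxidation genes followed in 23 of 24 members above 0, with a median of 0.34 that became 0.56 without SPF 3. Of them 7 were higher at an unadjusted p under 0.05, beside 3.7% of all genes. Creb3l3, a transcription factor of lipid metabolism, stood at 336 to 729 in VSG and 181 to 309 in SPF. Slc25a20, the carnitine carrier, stood at 154 to 199 against 90.9 to 142. Cpt1a, which starts mitochondrial fatty acid uptake, differed less, at 250 to 275 against 185 to 254 and a log2 fold change of 0.27 (p 0.121 in edgeR).

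Sugar handling, amino acid transport and brush border genes were also mostly above 0. Over all genes, 43.2% were above 0 and 3.7% were higher at an unadjusted p under 0.05. All 13 sugar handling genes had a log2 fold change above 0, with a median of 0.61, which was 0.23 without VSG 5. Only 2 of them had an unadjusted p under 0.05, Txnip and the gluconeogenic enzyme Pck1, and Pck1 stood at 22.7, 80.8, 113 and 103 in VSG and 27.3, 29.4 and 42.6 in SPF, so VSG 1 was below all sham libraries. The glucose transporter Slc5a1 was high only in VSG 4 and VSG 5, at 2588 and 2384, beside 1177 to 1382 in the other 5 libraries. In 12 of 14 amino acid and peptide transport genes the value was above 0, with a median of 0.33 (0.53 without SPF 3), and Slc43a2 and Slc6a19 were the 2 at an unadjusted p under 0.05. In the brush border list 18 of 19 were above 0, with a median of 0.39 (0.23 without SPF 5, 0.60 without SPF 3). Its 3 genes at an unadjusted p under 0.05 were the alkaline phosphatases Alpi and Akp3 and the cytoskeletal linker Ezr. The summed level of the brush border list overlapped between groups, at 33230 to 47480 in VSG and 21350 to 36070 in SPF.

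A list of 9 villus tip genes, chosen after values were seen, had all 9 above 0 and a median log2 fold change of 1.08. It shares Slc28a2, Nt5e, Ada, Apoa4 and Creb3l3 with the genes above. In the same libraries the list medians of stem cell and cell cycle genes, described further on, were below 0 while their summed levels overlapped between groups, and their part in the values of the absorptive genes was not tested. Of 7 upper small intestine genes tested, 3 were above 0 and 4 below, with a median of -0.20. Their list's summed level was 108 to 149 in VSG and 65.6 to 101 in SPF, with no overlap. That sum includes the iron exporter Slc40a1, at 57.5 to 98.2 against 35.7 to 49.9. Slc40a1 was the only 1 of the 7 with an unadjusted p under 0.05 or with groups that did not overlap. The sum is therefore not separate evidence for the list. The list also holds Gata4, by which the libraries were chosen, so its values are a description and support nothing. Gata4 stood at 1.71, 6.27, 5.62 and 5.01 against 1.94, 2.76 and 3.04. Lct stood at 4.6 to 24.6 against 3.7 to 11.6, and its groups overlapped. The part of position along the gut in the absorptive values was not tested.

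Genes of calcium, vitamin D and iron handling were also higher. In a list of 16 genes of iron, vitamin and calcium uptake, 15 had a log2 fold change above 0, with a median of 0.54. Of these, 8 were higher at an unadjusted p under 0.05. Over all genes, 43.2% were above 0 and 3.7% higher at that p. The list's summed level was 3508 to 4209 in VSG and 2047 to 3008 in SPF, with no overlap. S100g, the calcium-binding protein calbindin-D9k, stood at 146, 21.3, 4.71 and 58.2 in VSG and 1.13, 2.4 and 1.17 in SPF. All VSG libraries were above sham but spread widely, and the log2 fold change was 5.22 with a standard error of 1.13, and 4.18 without VSG 1. Cyp24a1, which degrades active vitamin D, stood at 3.7, 1.04, 0.0337 and 0.76 in VSG and had no count in any sham library. Against a floor of 3 counts over the sham group, 0.0316 CPM, its pooled VSG level of 1.37 CPM was at least 43.3-fold higher. VSG 1 held 95 of the 130 VSG counts, and without it the bound was 16.1-fold. VSG 1 was the highest library for both genes and VSG 4 the lowest. Atp2b1, a calcium pump of the basolateral membrane, stood at 349 to 553 against 205 to 323. The iron exporter Slc40a1 stood at 57.5 to 98.2 against 35.7 to 49.9, and the iron importer Slc11a2 at 74.9 to 106 against 54.4 to 62.8. Neither pair of groups overlapped. The median of a list of 7 tested vitamin D targets, chosen after values were seen, was 0.75, and it was unchanged with Cyp24a1 at its bound, as was the 0.54 above. Slc30a10 is 1 of these 7 genes, and 6 had a log2 fold change above 0. The other, the sugar phosphate carrier Slc37a2, stood at 1.13 to 2.02 in VSG and 2.12 to 2.67 in SPF, with -0.43.

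Several genes that respond to bacteria and to STAT3, the transcription factor of IL-22 signalling, were higher in VSG. Socs3, a STAT3-induced inhibitor of that pathway, stood at 97, 110, 68.2 and 124 in VSG and at 28.3, 31.5 and 52.2 in SPF. Stat3 itself stood at 185 to 242 against 124 to 150, and Nos2, inducible nitric oxide synthase, at 210 to 424 against 47 to 150. In these 3 genes no VSG library overlapped the sham range, with log2 fold changes of 1.42 (SE 0.28), 0.59 (SE 0.15) and 1.61 (SE 0.40). Reg3g, an antibacterial lectin, stood at 4267, 5003, 2142 and 2739 against 1008, 2422 and 695. SPF 3 overlapped VSG for Reg3g, and also for Reg3b, at 8849 against 5110 to 10060 in VSG, and for Saa1, at 40.7 against 22.2 to 145. The related Saa2 stood at 2.96 to 17.3 against 1.51 to 4.38. In the list of 16 microbe-induced defence genes 11 were above 0, and the median of 0.43 was 0.07 without VSG 1. There, 4 were higher at an unadjusted p under 0.05, beside 3.7% of all genes. A list of 14 genes of the IL-22 and STAT3 pathway, chosen after values were seen, had 11 above 0 and a median of 0.66.

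Paneth cell genes were lower in VSG throughout the list. All 15 members had a log2 fold change below 0. Of these, 14 were lower at an unadjusted p under 0.05, beside 3.26% of all genes. In 13 every VSG library lay below every sham library, beside 3.77% of all genes. The median log2 fold change was -1.55 and ranged from -2.04 to -1.27 with each library left out. The summed level of the list was 9548, 20080, 7913 and 5116 in VSG 1, 3, 4 and 5 and 24360, 42620 and 29180 in SPF 1, 3 and 5. VSG 3 came nearest to the sham libraries and SPF 3 was the highest. Among single genes, Defa3 stood at 248 to 894 in VSG and 1203 to 2379 in SPF, and Defa17 at 266 to 907 against 1184 to 2363. These defensin genes are near-identical copies, as are Ang4 and Ang5, so the level of each copy is uncertain. Copies may share reads, so the 14 and 13 members counted above may not be independent of each other. Ang4, an antimicrobial ribonuclease of Paneth cells, stood at 55.3 to 254 against 318 to 713, and Ang5 at 1.4 to 4.88 against 7 to 15. Ang4 belongs to a separate list of 5 colon and caecum genes, of which 3 were above 0 and 2 below, and whose summed level was 267 to 432 in VSG and 481 to 814 in SPF. That sum includes Ang4, the only 1 of the 5 with an unadjusted p under 0.05, so it is not separate evidence for the list. Nupr1, a stress-responsive chromatin protein, stood at 10.2 to 16.4 against 21.8 to 30. DESeq2 called 9 of the 15 genes, all lower, beside 0.245% of all genes called lower.

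Genes for lipase proteins better known from the pancreas were lower as well. Pnliprp2 stood at 26.1, 71.7, 33.3 and 26.5 in VSG and 99.4, 118 and 206 in SPF, and its cofactor colipase, Clps, at 26.1, 45.2, 22.1 and 13.8 against 60.5, 117 and 85.8. Both had non-overlapping groups, with VSG 3 the highest VSG library as for the Paneth genes. Their log2 fold changes were -1.85 (SE 0.40) and -1.72 (SE 0.38), and the much lower Pnliprp1 had -1.60. Their list of lipases and colipase was chosen after values were seen. Of its 4 genes tested, these 3 were below 0 and 1 was above 0. A list of stomach and pancreas markers was near 0 throughout, with summed levels of 4.89 to 12.5 in VSG and 3.66 to 8.13 in SPF, Gkn1 and Gkn2 at 0 in all 7 libraries and only Cela1 of its 10 members high enough to be tested. Reg4, a lectin of secretory cells, stood at 53.3, 68.8, 36.8 and 29.7 against 117, 202 and 222, a log2 fold change of -1.94 (SE 0.32, adjusted edgeR p 0.351).

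**Figure D4:**
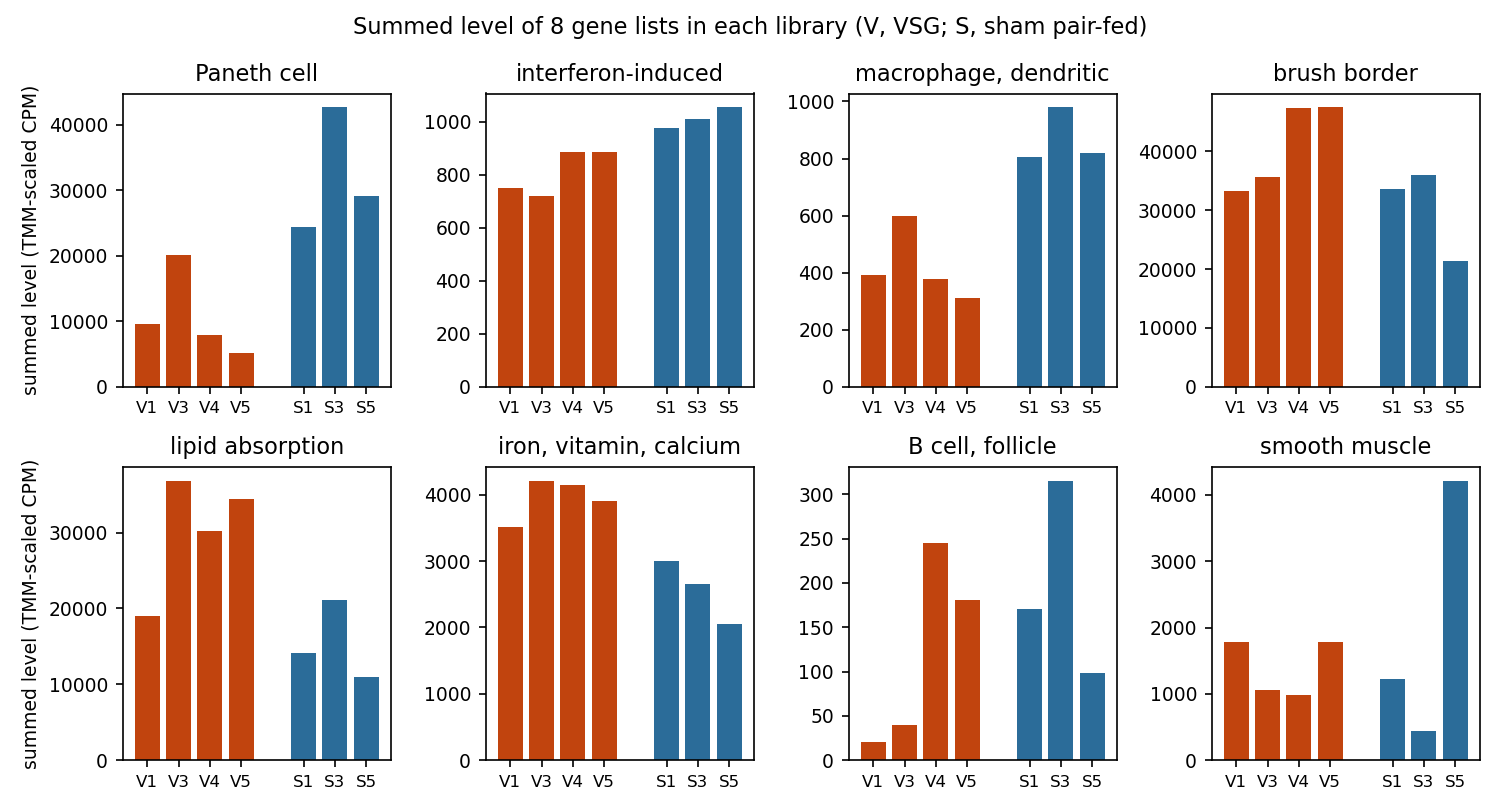
Summed TMM-scaled CPM of 8 gene lists in each kept library, drawn from 0, with VSG libraries (V) in orange and SPF libraries (S) in blue. The Paneth, interferon-induced and macrophage sums are lower in every VSG library than in any SPF library and the sum of the iron, vitamin and calcium list is higher, while the B cell and smooth muscle sums overlap. Without Lyz2, which is not drawn apart, the macrophage sums overlap, at 184 to 226 in VSG and 217 to 274 in SPF.

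Interferon-induced genes were lower in VSG. They include the guanylate-binding and immunity-related GTPases, which act against pathogens inside cells, and chemokines. Of 34 genes, 28 had a log2 fold change below 0, beside 9042 of the 15911 genes tested. In 16 the level was lower at an unadjusted p under 0.05, beside 3.26% of all genes, and none was higher at that p. In 13 of the 34 every VSG library lay below every sham library, beside 3.77% of all genes. The median was -0.49, and the summed level was 719 to 887 in VSG and 978 to 1054 in SPF, with no overlap. Gbp2, a guanylate-binding protein, stood at 8.81, 8.27, 10 and 9.51 in VSG and 19.2, 19 and 26.1 in SPF, a log2 fold change of -1.23 (SE 0.18, adjusted edgeR p 0.213). It had the lowest p of all lower genes, and DESeq2 gave an adjusted p of 5.57e-06. Igtp and Irgm1, immunity-related GTPases, stood at 4.59 to 8.72 against 14.3 to 37.9 and at 23.4 to 28.4 against 38 to 69.4. SPF 5 was the highest library for both, and without it their log2 fold changes went from -1.76 to -1.14 and from -0.96 to -0.64. Gm12250, the GTPase Irgb10 and not among the 34, stood at 1.55 to 2.66 against 4.28 to 9.7, and Cxcl9, a chemokine that attracts T cells, at 1.56 to 3.27 against 4.74 to 7.57. In these 5 genes the groups did not overlap.

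Interferon-induced promoters are known for the interferon-stimulated response element (ISRE), searched here as GAAANNGAAA on either strand in RefSeq's windows from 250 bases before to 50 bases after the start (GRCm38.p6). It was found in 15 of the 24 list genes with a window, in 3.99% of all 27025 genes with a window, and in 3.44% of all 32851 windows, since a gene can have several. The stretches below are shown because they belong to the 4 lower GTPase genes of this section, with each ISRE match in capitals and the rest in lower case, all 5′ to 3′ on the gene's strand and ending at or before its start.
Gbp2 (chr3:142620574-142620643, plus strand): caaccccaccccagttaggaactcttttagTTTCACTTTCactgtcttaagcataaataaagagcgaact
Igtp (chr11:58199492-58199555, plus strand): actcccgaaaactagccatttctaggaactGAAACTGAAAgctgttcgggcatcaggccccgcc
Irgm1 (chr11:48871421-48871474, minus strand): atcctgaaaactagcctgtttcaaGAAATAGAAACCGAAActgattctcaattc
Gm12250 (chr11:58183767-58183836, plus strand): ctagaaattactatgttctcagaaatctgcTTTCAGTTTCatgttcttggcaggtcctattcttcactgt
The Irgm1 stretch holds 2 overlapping matches, and the Gm12250 window holds a further match upstream of the stretch shown. The match nearest to the start ends 49 bases before the start in Gbp2, 24 in Igtp, 14 in Irgm1 and 36 in Gm12250. Across the list a match was in 5 of the 11 lower genes at an unadjusted p under 0.05 that had a window and in 10 of the 13 others. The gamma-activated site, searched as TTCNNNGAA on either strand, was in 4 of those 11 and 2 of those 13 genes and in 9.55% of all genes with a window. A match is a description of these letters, not a site of binding.

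Most immune cell lists, though not plasma cells, had a median below 0 beside the interferon genes, with summed levels that mostly overlapped between groups. Their part in the interferon result was not tested. Of 14 macrophage and dendritic cell genes, 12 were below 0, beside 9042 of the 15911 genes tested, with a median of -0.42. In 4 the level was lower at an unadjusted p under 0.05, beside 3.26% of all genes. The summed level of the 14 genes was 312 to 598 in VSG and 806 to 979 in SPF, with no overlap, and no member was at 0 in all 7 libraries. In SPF most of it was Lyz2, at 534, 706 and 603. Its share was smaller in VSG, where Lyz2 stood at 165, 373, 193 and 124. Lyz2 is a near copy of the Paneth cell lysozyme Lyz1 and may take its reads. Without Lyz2 the sums were 184 to 226 and 217 to 274 and overlapped. Csf1r, the receptor of macrophage growth factor, stood at 29 to 39.9 against 40.9 to 45.7, and the complement genes C1qa and C1qc at 33.5 to 37.4 against 37.5 to 59.5 and 26.1 to 28.2 against 28.5 to 42.8.

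All 14 T cell genes tested were below 0, with a median of -0.87 that was -0.46 without SPF 3. Itgae, an integrin of intraepithelial lymphocytes, stood at 3.91 to 6.07 against 7.13 to 10.5, while Cd7 and Ccl5 overlapped through SPF 5. The summed T cell level was 29.5 to 70.9 in VSG and 53.9 to 115 in SPF. All 14 B cell and follicle genes were below 0 too, with a median of -0.65, but none had an unadjusted p under 0.05. Their summed level was 20.2, 39.6, 245 and 181 in VSG and 170, 315 and 98.6 in SPF, so VSG 1 and VSG 3 were low and VSG 4 and VSG 5 were within the sham range. The median was -0.18 without SPF 3 and -1.27 without VSG 4. MHC class II genes showed the same split, all 11 below 0 with a median of -0.64 (-0.10 without SPF 3) and none at an unadjusted p under 0.05. Of 8 plasma cell genes, 6 were above 0, with a median of 0.35. The antibody variable segments Igkv15-103 and Gm16633, which RefSeq names Ighv1-58, were lower at 4.02 to 10.3 against 20.6 to 41.8 and at 0.23 to 0.865 against 1.94 to 6.53.

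Markers of other cells that are not epithelial were also mostly below 0, and their part in the values of the interferon and immune genes was not tested. All 10 fibroblast and matrix genes were below 0, with a median of -0.50 and summed levels of 460 to 700 in VSG and 363 to 1052 in SPF. Of 10 endothelial and lymphatic genes 9 were below 0, with a median of -0.35 and sums of 116 to 154 against 91 to 223. All 5 red blood cell genes were below 0, with a median of -0.69 and sums of 36.3 to 137 against 82 to 173, and so were 4 of 5 mast cell and granulocyte genes, with a median of -0.83 and sums of 19.7 to 22.7 against 18.6 to 50.2. In all 4 lists the sums overlapped between groups, and no gene had an unadjusted p under 0.05. Over all genes tested, 9042 of 15911 were below 0.

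Most genes of the crypt cell lists had a log2 fold change below 0, while the lists' summed levels overlapped between groups. Over all genes tested, 9042 of 15911 were below 0 and 3.26% were lower at an unadjusted p under 0.05. Of 12 stem cell genes 11 were below 0, with a median of -0.50, and 2 were lower at an unadjusted p under 0.05. Those were Smoc2, at 26.9 to 35 against 35 to 51.8, and Olfm4, a secreted glycoprotein of crypt-base cells, at 63.5 to 291 against 203 to 513. The summed stem cell level was 254 to 609 in VSG and 451 to 852 in SPF. All 23 cell cycle genes were below 0, with a median of -0.31 (-0.58 without VSG 3), and the replication genes Mcm5 and Mcm6 were the 2 lower at an unadjusted p under 0.05. The summed cell cycle level was 535 to 969 in VSG and 845 to 933 in SPF, and VSG 3 was the highest of all 7 libraries. Of 13 goblet cell genes 11 were below 0 with a median of -0.31, and Spink4 and Creb3l1 were the 2 lower at that p. The summed goblet level was 13430 to 16680 in VSG and 13090 to 21240 in SPF. Sfrp5, a secreted Wnt antagonist, was low in all libraries, at 0.27 to 0.799 in VSG and 1.22 to 2.91 in SPF.

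**Figure D5:**
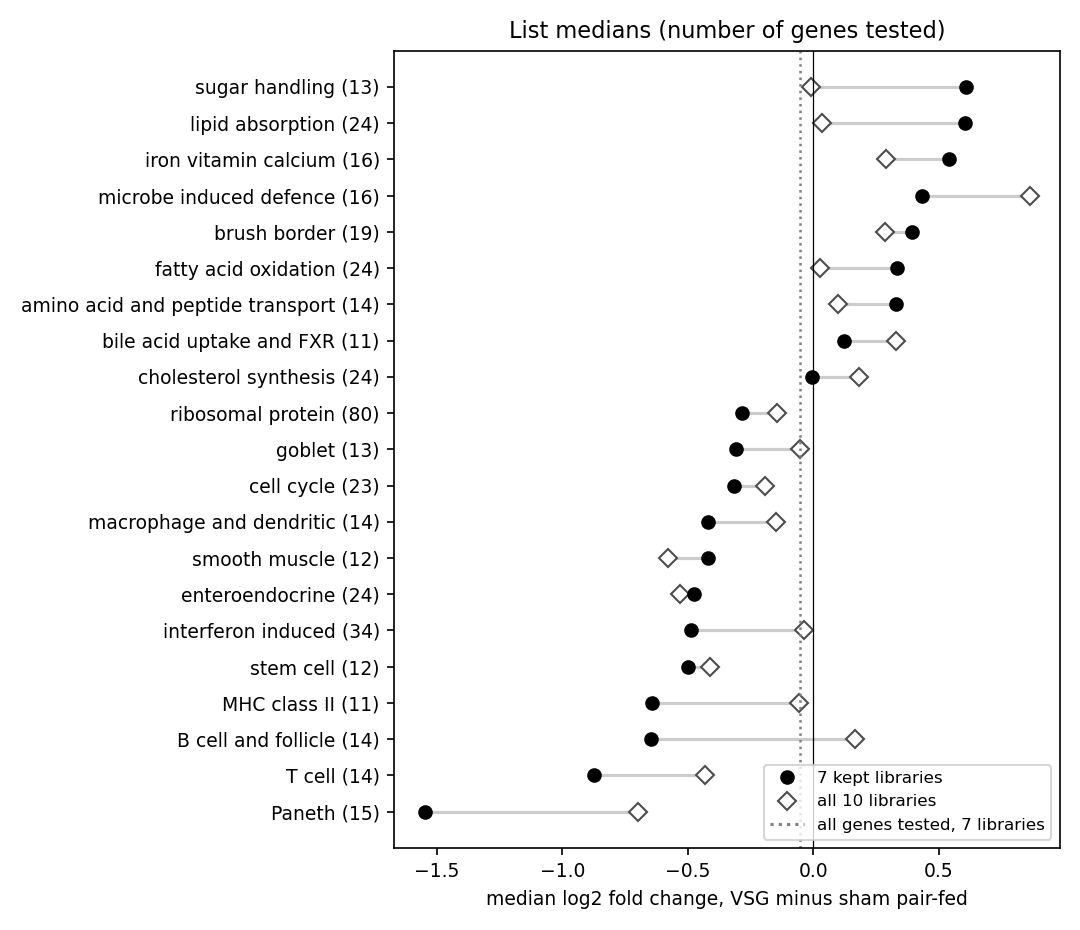
Median log2 fold change (VSG minus SPF) of 21 gene lists, with the number of genes tested in parentheses, in the 7 kept libraries (filled circles) and in all 10 libraries (open diamonds). The dotted line is the median of all genes tested, -0.05. The lipid absorption, sugar handling and interferon medians lie near 0 with all 10 libraries and at 0.60, 0.61 and -0.49 in the 7.

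Gut hormone genes of the enteroendocrine cells were mostly lower or level. Of 24 enteroendocrine genes 22 were below 0, beside 9042 of the 15911 genes tested, with a median of -0.47. Among them 5 were lower at an unadjusted p under 0.05, beside 3.26% of all genes. Sst, somatostatin, stood at 33.2, 19.1, 31.2 and 21.7 in VSG and 39.5, 63.1 and 46 in SPF, and the groups did not overlap (log2 fold change -0.91, SE 0.24, adjusted edgeR p 0.633). Gcg, the precursor of GLP-1, stood at 18.9 to 46.9 against 46.4 to 80.2, and Chga, a granule protein, at 15 to 35.5 against 43 to 92.8. Fev, a transcription factor of serotonin-producing cells, had a log2 fold change of -0.87. Pyy and Nts, satiety hormones of the distal gut, had log2 fold changes of -0.12 (SE 0.27) and 0.04 (SE 0.20). The hormones of the upper gut were low, Cck at 3 to 4.46 against 3.14 to 6.29 and Ghrl at 0.981 to 1.3 against 1.11 to 3.03.

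Bile acid genes, which mark the ileum and are studied after VSG, gave imprecise values within these libraries. Fabp6 stood at 3363, 3939, 4506 and 4609 in VSG and at 2551, 6096 and 2679 in SPF. The sham range enclosed all VSG values, and the log2 fold change was 0.12 with a standard error of 0.34. Slc10a2 had 0.59 (SE 0.33; 1.14 without SPF 1), the basolateral exporters Osta and Ostb had 0.14 (SE 0.31) and 0.02 (SE 0.31), and the bile acid receptor Nr1h4, known as FXR, had 0.12 (SE 0.30). Fgf15, the hormone that FXR induces, stood at 76.8, 19.9, 214 and 177 in VSG and 33.5, 49.2 and 115 in SPF, and its log2 fold change of 0.89 had a standard error of 0.72 (p 0.251 in edgeR). VSG 3 was the lowest of all 7 libraries for Fgf15 and VSG 4 the highest. Among the 11 genes of the list, Abcc3, a basolateral exporter, was higher and Klb, the co-receptor of Fgf15, lower at an unadjusted p under 0.05, at 49 to 120 against 38 to 48.9 and at 0.16 to 0.54 against 0.707 to 0.96. Abcc2, an exporter of the luminal membrane, stood at 69.4, 104, 227 and 196 in VSG and 113, 59.6 and 43.8 in SPF, with a log2 fold change of 1.05 (SE 0.46, unadjusted edgeR p 0.0512). Gpbar1, the membrane receptor for bile acids, stood at 0.195 to 0.81 against 0.511 to 1.33.

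A few lower genes belonged to none of these groups. Agt, angiotensinogen, stood at 15.5, 15, 13.4 and 12.9 in VSG and 29.1, 25 and 30.4 in SPF, with a log2 fold change of -0.99 (SE 0.15, adjusted edgeR p 0.213). Ces1d, a carboxylesterase, stood at 9.03, 6.64, 5.42 and 7.35 against 18, 13.2 and 18.5, and Slc14a1, a urea transporter, at 0.999 to 1.48 against 2.47 to 3.76. The groups of all 3 were apart. Some lists depended on single sham libraries. The smooth muscle median was -0.42 with all 7 libraries and 0.85 without SPF 5, where the contractile actin Actg2 stood at 675 beside 33.5 to 185 in the other 6. The ribosomal protein median was -0.28, with 79 of 80 genes below 0, and 0.16 without SPF 3. The cholesterol synthesis list had 12 genes on either side of 0.

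The same comparison over all 10 libraries shares these 7 and gave other values for some genes, for causes that were not tested. Apoa4 stood at 17900 CPM by library total in VSG 2, 22450 in SPF 2 and 17270 in SPF 4, above the 234.7 to 8946 of the kept libraries. Its log2 fold change was 3.24 in the 7 libraries and -0.37 in all 10. Acot12 went from 3.10 to -0.58, Mttp from 0.94 to -0.16, Pck1 from 1.27 to -0.54 and Alpi from 0.83 to -0.27. Cxcl9 and Pyy, both below 0 in the 7 libraries, were 0.0458 and 0.23. With region added as a term these 5 genes were 2.54, 2.24, 0.64, 0.89 and 0.37, each above 0 as in the 7 libraries. Slc30a10 was 1.72 and Slc28a2 0.92 over all 10.

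The interaction of surgery and region rests on 1 VSG library and 2 SPF libraries outside the 7, with region set by Gata4, so it does not settle whether the difference depends on region. No gene of 17319 passed an adjusted p of 0.05 in edgeR (0%), and 946 (5.46%) had an unadjusted p under 0.05. Gbp2 had an interaction of -2.84 on the log2 scale with an adjusted edgeR p of 0.176. It stood at 34.3 CPM by library total in VSG 2 and at 8.71 and 13.9 in SPF 2 and SPF 4, the reverse of the order in the kept libraries. Cxcl9 had a similar order, 18.8 in VSG 2 against 2.57 and 6.58. Slc30a10 stood at 42.2 in VSG 2 and at 21.9 and 126 in SPF 2 and SPF 4, with an interaction of 3.53 and an adjusted edgeR p of 0.834.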

How the data were processed

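RNA was sequenced as single-end 50-bp reads from Illumina TruSeq libraries, per the labels' protocols. The deposited files hold estimated counts of 36401 genes for every library, in a file whose name speaks of RPKM although its values sum to the library depth. A second deposited file gives log2 values, which the values show to be log2 of scaled counts minus the SPF median of each gene. The submitters' processing notes list DESeq and mm9. Aligner and counter were not given in the sources used here, and strand-specific counting was likewise unstated. Without a genome of that build, gene coordinates are printed for promoter stretches alone, from RefSeq on GRCm38.p6.

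Libraries were kept by Gata4 below 20 CPM. Estimated counts were rounded, filtered with filterByExpr to 15911 genes, scaled with TMM and tested with edgeR 4.0.16 (R 4.3.3, quasi-likelihood F test, Benjamini-Hochberg, threshold 0.05). The common coefficient of variation between replicates was 0.3. The log2 files served only to recover the authors' scaling factors for an alternative. DESeq2 1.42.0, limma 3.58.1 (voom), other scalings and filters, a replicate block, all 10 libraries and leaving out each library were alternatives. The script was tested on simulated data. The precision rests on 15364651 to 34058181 counts per library and 4 against 3 libraries.

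The libraries, genes and gene lists were chosen with earlier results of these data known, and 5 lists (purine, vitamin D, villus tip, IL-22 and STAT3, lipase and colipase) were added after values were seen. Lists are described by counts and medians, without a test. Genes named are the 10 of lowest p in each direction with a mean of at least 1 CPM, a fixed set of gut genes, up to 4 genes of lowest p in each list described, up to 10 genes that DESeq2 called, and the region markers. Of the lists matched by symbol, the mitochondrially encoded genes matched no row and were left out. Some items are not reported here.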

Additional observations from a re-analysis of the deposited data

Results flagged for a closer look

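In 3 genes and in the summed levels of 2 gene lists, 1 of the 4 VSG libraries stood apart from the other 3 by more than the 95% critical value of Dixon's test. Chance alone gives this in about 1 in 20 groups, and 101 genes and 46 lists were checked. The 3 sham libraries were too few for this test. Igkv15-103 was at 10.3 in VSG 3 and at 4.51 in the next library. Mfi2 was at 3.08 in VSG 1 and at 1.48 in the next. Pnliprp2 was at 71.7 in VSG 3 and at 33.3 in the next. The summed level of the fibroblast and matrix list was 700 in VSG 3 and 487 in the next library, inside the sham range of 363 to 1052. The summed level of the xenobiotic and carboxylesterase list was 3740 in VSG 1, and the next lowest was 4600.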

How the results depend on the processing

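Genes called higher numbered 0 in edgeR, 46 with DESeq2, 2 with limma-voom, 4 with limma-voom and sample weights and 4 with no filter on low counts. Genes called lower numbered 37 with DESeq2 and 1 with limma-voom and sample weights. With each library left out, 0 to 2 genes were called higher (2, Gm2061 and Slc30a10, without VSG 4) and 0 were called lower. Genes at an unadjusted p under 0.05 numbered 595 over all 10 libraries, 640 with region as a term, 3587 with limma-voom and sample weights, and from 692 (without VSG 5) to 3305 (without SPF 3) with each library left out. The share of these genes that were higher was 53.1%, but 28.6% with library totals, 27.6% with upper quartile factors and 42.4% without VSG 3. Library totals moved the median of all genes from -0.05 to -0.15.

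The labels do not say that equal replicate numbers mark a pair. Same-numbered libraries had correlations of deviations of -0.152, -0.124 and -0.127, and the others ran from -0.0953 to 0.116. Such correlations cannot show whether samples were paired in the design. With the number as a replicate block 534 genes had an unadjusted p under 0.05 and 0 were called.

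All 101 genes named kept their direction with DESeq2, DESeq2 size factors, the deposited scaling factors, limma-voom and robust estimation. Some directions reversed. With all 10 libraries they were Abcc2 (-0.24), Acot12 (-0.58), Akp3 (-2.86), Alpi (-0.27), Apoa4 (-0.37), Cxcl9 (0.0458), Gata4 (-1.10), Mttp (-0.16), Pck1 (-0.54) and Pyy (0.23). With region as a term they were Akp3 (-0.16), Fabp6 (-0.0766) and Pyy (0.0157). Nts was -0.0217 with library totals and -0.0362 with upper quartile factors, and Ostb -0.0215 and -0.0572. Pyy was 0.24 with limma-voom and sample weights and 0.0216 with the block, where Actg2 was 0.0544. With each library left out Ostb ran from -0.21 to 0.51, Nr1h4 from -0.12 to 0.45, Fabp6 from -0.10 to 0.65, Nts from -0.14 to 0.32, Osta from -0.0797 to 0.56, Pyy from -0.32 to 0.33, Actg2 from -1.63 to 0.75 and Nfil3 from -2.14 to 0.0766. List medians kept their sign under every scaling, apart from cholesterol synthesis and ER stress, whose medians lie near 0. Under the other settings 0 to 9 of 45 list medians changed sign. The causes of these changes were not tested. Low genes such as Cyp24a1, Gm16633 and Mfi2 rest on few counts.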

Other observations

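Of 15 fatty acid synthesis genes 10 were below 0 in VSG, beside 9042 of the 15911 genes tested. The list's median log2 fold change was -0.06, beside -0.05 over all genes. The 2 lower at an unadjusted p under 0.05 in edgeR, beside 3.26% of all genes, make and extend polyunsaturated fatty acids. Elovl5, an elongase, stood at 30.3 to 40.6 in VSG and 46.7 to 53.8 in SPF, and Fads2, a desaturase, at 45.1 to 62.4 against 66.7 to 83.7, with no overlap in either. Of 17 clock genes 14 were above 0 (median 0.37 on the log2 scale), beside 43.2% of all genes, and none had an unadjusted p under 0.05. Per2, a repressor of the clock, stood at 19.9, 32.1, 67.4 and 63.7 in VSG and 35.2, 17.2 and 15.8 in SPF, while Nfil3, which is rhythmic in gut epithelium, stood at 2.92 to 10.3 in VSG and at 6.28, 5.03 and 46.6 in SPF. SPF 5 alone set the direction of Nfil3.

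The carboxylesterases went both ways. Ces2c stood at 280 to 609 in VSG and 155 to 285 in SPF, with a log2 fold change of 0.92, and Ces1e at 3.74 to 5.64 against 4.87 to 11.1, with -0.78. In both the groups overlapped, unlike in Ces1d.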
